A study of Mus musculus with 18 samples.

Results

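Described here are 8 mouse genes for enzymes that desaturate or lengthen fatty acids, measured in the liver of mice that lack the protein AIM and of wild-type mice. The desaturases are Fads1, Fads2, Fads3 and Scd2, and the elongases are Elovl1, Elovl2, Elovl3 and Elovl5. They are a list of names, matched to the gene symbols of the array's annotation. Scd1 and Elovl6 were set aside as enzymes of new fat synthesis, and other relatives, such as Scd3, Elovl7 and Fads6, are outside the list. The 8 genes are among 14694 genes that could be tested. They were covered by 19 probe sets, of which the brightest stood for its gene. All 8 passed the filter on dim probe sets.

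Total RNA of whole liver from C57BL/6 mice was hybridised to 18 Affymetrix Mouse Genome 430 2.0 arrays. AIM-KO mice carry the AIM-/- genotype and WT mice are AIM+/+, where AIM, the apoptosis inhibitor of macrophage, is a protein secreted by macrophages and encoded by Cd5l. Each genotype was studied on normal chow (0 weeks of a high-fat diet, HFD), after 12 weeks of HFD and after 20 weeks of HFD, with 3 arrays in each of the 6 groups. The question of the design is how the liver responds to the diet and how that response differs without AIM. The labels give neither sex nor age, so time on HFD cannot be told apart from age. The samples are called biological replicates, with no statement that each came from a separate animal, so p-values measure only the spread between these samples. In whole liver, fewer cells of a type and less RNA per cell cannot be told apart.

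Polyunsaturated fatty acids of membranes and signalling lipids are built in the endoplasmic reticulum from the essential dietary fatty acids linoleic and alpha-linolenic acid, and the liver is a main site of this. Fads2 inserts the first double bond, Elovl5 lengthens the product, Fads1 inserts the next double bond to give arachidonic or eicosapentaenoic acid, and Elovl2 and Elovl5 lengthen these on the way to docosahexaenoic acid. Other members act elsewhere: Scd2 is a stearoyl-CoA desaturase that makes monounsaturated fatty acids, Elovl1 and Elovl3 build saturated and monounsaturated very long chains, and Fads3 acts on sphingoid bases.

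The genes of the first pathway lie apart in the genome except for the Fads cluster. Fads3, Fads2 and Fads1 are neighbours in that order on chromosome 19, which also carries Scd2 and Elovl3. Elovl5 is on chromosome 9, Elovl2 on chromosome 13 and Elovl1 on chromosome 4. A promoter in RefSeq's build GRCm38.p6, from 250 bases before to 50 bases after the start of transcription, was at hand for 5 of the 8 genes. Shown are those of Fads2, Elovl2 and Elovl5, which were higher in every comparison with chow below, and of Fads3, the neighbour of Fads2 that passed the test in none. Each runs 5′ to 3′ on the gene's own strand, and capitals mark a match to a searched motif on either strand. Fads2 is at chr19:10101454-10101753 (minus strand), Fads3 at chr19:10041298-10041597 (plus strand), Elovl2 at chr13:41220354-41220653 (minus strand, the first of its start sites) and Elovl5 at chr9:77917115-77917414 (plus strand).
Fads2: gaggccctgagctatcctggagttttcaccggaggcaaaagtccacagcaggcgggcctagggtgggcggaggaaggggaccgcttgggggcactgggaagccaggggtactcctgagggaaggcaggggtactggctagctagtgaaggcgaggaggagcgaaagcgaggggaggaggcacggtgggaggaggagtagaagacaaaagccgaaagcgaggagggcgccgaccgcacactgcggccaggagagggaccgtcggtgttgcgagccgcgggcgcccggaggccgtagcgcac
Fads3: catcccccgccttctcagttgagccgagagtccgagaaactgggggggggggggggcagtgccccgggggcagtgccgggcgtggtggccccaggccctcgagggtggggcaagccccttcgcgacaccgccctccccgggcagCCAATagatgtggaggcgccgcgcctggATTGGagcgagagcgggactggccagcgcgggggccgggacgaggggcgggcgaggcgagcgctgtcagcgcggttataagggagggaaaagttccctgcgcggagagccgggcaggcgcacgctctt
Elovl2: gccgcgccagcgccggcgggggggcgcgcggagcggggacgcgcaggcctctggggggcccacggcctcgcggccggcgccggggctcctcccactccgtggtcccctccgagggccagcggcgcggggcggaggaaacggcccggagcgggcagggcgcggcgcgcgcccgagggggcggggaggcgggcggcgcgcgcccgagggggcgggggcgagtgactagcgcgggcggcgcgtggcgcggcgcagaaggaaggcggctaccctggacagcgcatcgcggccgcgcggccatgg
Elovl5: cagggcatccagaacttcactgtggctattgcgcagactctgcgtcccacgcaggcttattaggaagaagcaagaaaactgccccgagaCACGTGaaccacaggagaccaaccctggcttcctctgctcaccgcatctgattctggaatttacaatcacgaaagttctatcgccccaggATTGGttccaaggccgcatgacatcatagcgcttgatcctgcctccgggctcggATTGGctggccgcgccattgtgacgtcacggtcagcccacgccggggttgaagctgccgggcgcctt

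The motifs searched on both strands were the NF-Y box CCAAT, the E-box CACGTG, the sterol response element core TCACNCCAC, the STAT box TTCNNNGAA and the nuclear receptor core motif TGACCT. Of 32851 promoters of the same length, 37.4% held CCAAT, 7.15% CACGTG, 1.24% TCACNCCAC, 8.3% TTCNNNGAA and 16.3% TGACCT. The Elovl5 promoter held CCAAT at positions -71 and -17 from the start, both on the minus strand, and CACGTG at -161. The Fads3 promoter held CCAAT at -106 and -78, and the Fads2 and Elovl2 promoters held no match to any of the motifs. The GC content was 67% for Fads2, 73% for Fads3, 84.7% for Elovl2 and 57.7% for Elovl5, against a median of 52.7% over all promoters. A match describes letters in this window and nothing about binding.

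Cd5l, the deleted gene, went with the genotype labels: it read 4 to 23.5 on the 9 AIM-KO arrays and 702.6 to 1926.8 on the 9 WT arrays. Albumin and the other tested hepatocyte markers were bright except Ass1, and the correlation between arrays was 0.955 to 0.98 within groups and 0.939 to 0.977 between groups. Xist, the transcript of the inactive X chromosome in females, read 2921.6 to 3049.7 on 4 arrays, namely all 3 AIM-KO arrays at 20 weeks and replicate 2 of WT at 20 weeks. It read 7.8 to 26.2 on the other 14 arrays, and the Y-linked gene Eif2s3y read 3.9 to 7.3 on those 4 arrays and 498.4 to 675.1 on the 14. High Xist and the AIM-KO group at 20 weeks cannot be told apart within that genotype. The 20 week values were therefore also computed with a term for high Xist, which rests on the single WT array, or without the 4 arrays. They are given below where a call, a direction or a size changed. That WT array also differed in the 3'/5' signal ratio of actin, a sign of RNA quality. The ratio was 2.54 on it, against 3.64 and 4.22 on replicates 1 and 3 of WT at 20 weeks. The term therefore cannot tell high Xist from other traits of that array.

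After HFD most of these genes were called, and the 4 of the pathway to long polyunsaturated fatty acids were all higher. In AIM-KO livers at 12 weeks 6 of the 8 were higher and Elovl3 was lower than on chow, where limma called 18% of all genes, 11.2% higher and 6.76% lower. In WT livers at 12 weeks 4 were higher and Elovl3 was lower, beside 5.12% of all genes, 3.5% higher and 1.63% lower. At 20 weeks 4 were higher and Elovl3 lower in AIM-KO livers (6.85% of all genes called, 4.23% higher and 2.62% lower), and 5 were higher and Elovl3 lower in WT livers (14.4%, 8.68% higher and 5.76% lower). HFD arrays all above the chow arrays of their genotype, as described for single genes below, were found at 12 weeks for 20.3% of all genes in AIM-KO and 12.6% in WT livers, and at 20 weeks for 13.5% in AIM-KO and 15.4% in WT livers. HFD arrays all below them were found for 14.4% in AIM-KO and 11.3% in WT livers at 12 weeks, and for 10.5% in AIM-KO and 13.7% in WT livers at 20 weeks. The median log2 change of the 8 genes was 0.67 in AIM-KO and 0.72 in WT livers at 12 weeks, and 0.73 in AIM-KO and 0.60 in WT livers at 20 weeks. Over all genes the median was 0.04 in AIM-KO and -0.0013 in WT livers at 12 weeks, and 0.04 in AIM-KO and -0.01 in WT livers at 20 weeks. Fads1, Fads2, Elovl2 and Elovl5 were called higher and Elovl3 lower in each of the 4 comparisons, where 1.56% of all genes were higher and 0.551% lower in all 4. The comparisons of 12 and of 20 weeks within a genotype share their chow arrays, and their overlap is given as a description. The 3'/5' signal ratio of actin, a sign of RNA quality, was 3.47 ± 0.86 in WT livers at 20 weeks, against 2.67 ± 0.13 in WT livers on chow (SD, n = 3 each), and 2.51 ± 0.14 in AIM-KO livers at 20 weeks, against 2.51 ± 0.22 in AIM-KO livers on chow. With the log2 ratio as a term in the fit no call of a member against chow was lost. Markers of cell types moved too: of 11 tested hepatocyte genes 7 were lower in AIM-KO and 1 in WT livers at 12 weeks, and 0 in AIM-KO and 3 in WT livers at 20 weeks. Of 10 stellate cell genes 7 were higher in AIM-KO and 4 in WT livers at 12 weeks. At 20 weeks 6 were higher in AIM-KO and 9 in WT livers (4 in AIM-KO and 9 in WT livers with the term for high Xist). Several of the hepatocyte genes were near the brightest values of the arrays, such as Alb, the gene of albumin, at 6138.8 to 11103.8 where the array maxima were 10002.9 to 16640. The part of these cell types in the changes below was not tested.

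**Figure D1:**
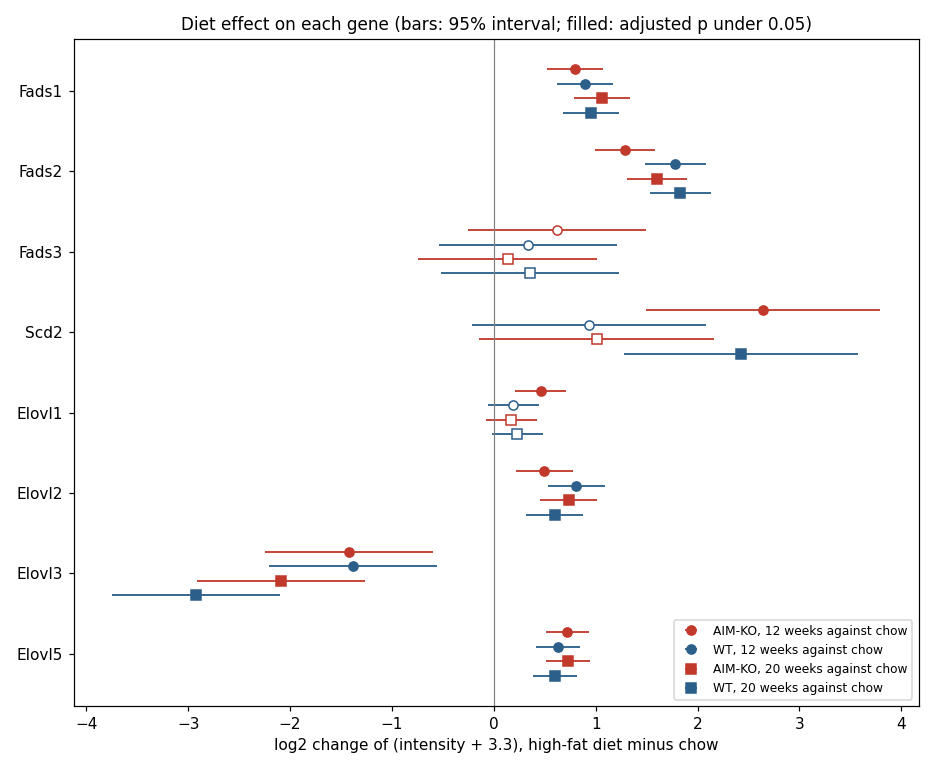
Log2 change of each gene's intensity, high-fat diet minus chow, with its 95% interval, for AIM-KO (red) and WT (blue) at 12 weeks (circles) and 20 weeks (squares); filled symbols passed the test at an adjusted p under 0.05. Fads1, Fads2, Elovl2 and Elovl5 sit right of 0 in all 4 comparisons and Elovl3 left of 0, while Scd2 has wide intervals and was past the threshold only in AIM-KO at 12 weeks and in WT at 20 weeks.

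Fads2, the first and rate-limiting desaturase of the pathway, changed most among the genes of the polyunsaturated pathway. Its intensity on chow was 1668.1, 1119.9 and 1415.8 in AIM-KO livers and 998.1, 987.7 and 1055.8 in WT livers. At 12 weeks it was 3561.5, 3580.4 and 3024.9 in AIM-KO and 3937.4, 2707.1 and 3986.2 in WT livers. At 20 weeks it was 4336.7, 4194.7 and 4079.2 in AIM-KO and 3448.2, 3802.1 and 3606.3 in WT livers. Every HFD array lay above every chow array of its genotype. Log2 changes against chow, here and below given ± SE with 3 arrays in each group, were 1.29 ± 0.14 in AIM-KO (2.44-fold, adjusted p = 8.9e-06) and 1.78 ± 0.14 in WT livers (3.44-fold, adjusted p = 5.9e-07) at 12 weeks. At 20 weeks they were 1.60 ± 0.14 in AIM-KO (3.03-fold, adjusted p = 1.5e-06) and 1.83 ± 0.14 in WT livers (3.56-fold, adjusted p = 2.6e-07). With the term for high Xist the change at 20 weeks was 1.49 ± 0.26 in AIM-KO (adjusted p = 0.00864) and 1.80 ± 0.16 in WT livers (adjusted p = 1.47e-06). Both other probe sets of Fads2 gave changes of 1.35 to 2.27, all past the threshold.

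Fads1, the desaturase that completes arachidonic and eicosapentaenoic acid, was higher on HFD than on chow in both genotypes. Its intensity on chow was 2963.3, 2046.2 and 1876.5 in AIM-KO livers and 2030.6, 2047.8 and 2206.3 in WT livers. At 12 weeks it was 4115.5, 3757.7 and 3850.8 in AIM-KO and 4211.5, 3424.1 and 4124.7 in WT livers. At 20 weeks it was 5077.1, 4562.4 and 4477.6 in AIM-KO and 3940.1, 4244.6 and 3985.5 in WT livers. The HFD arrays of a genotype did not overlap those on chow, although replicate 1 of AIM-KO on chow stood above the other chow arrays. The log2 change was 0.80 ± 0.13 in AIM-KO (adjusted p = 0.00036) and 0.90 ± 0.13 in WT livers (adjusted p = 0.00039) at 12 weeks. It was 1.06 ± 0.13 in AIM-KO (adjusted p = 5.6e-05) and 0.95 ± 0.13 in WT livers (adjusted p = 8.6e-05) at 20 weeks. With the term for high Xist the AIM-KO change at 20 weeks was 0.96 ± 0.23 and no longer past the threshold (adjusted p = 0.0523). With the mean of its probe sets both 12 week calls were lost, at 0.43 ± 0.19 in AIM-KO (adjusted p = 0.137) and 0.63 ± 0.19 in WT livers (adjusted p = 0.0624).

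Elovl5, which lengthens the product of Fads2, had the smallest spread among replicates of the 8 genes. Its intensity on chow was 5007.2, 4133.6 and 5164.5 in AIM-KO livers and 5957.8, 5041.2 and 4978.2 in WT livers. At 12 weeks it was 8018.3, 7694.9 and 7788.2 in AIM-KO and 7980.2, 8531.3 and 8169.1 in WT livers. At 20 weeks it was 7833.4, 7427.9 and 8361.2 in AIM-KO and 7742.3, 7416.1 and 9008.5 in WT livers. In each genotype all HFD arrays lay above all chow arrays. These values are bright for the arrays, whose maxima were 10002.9 to 16640, and compression of the change near that end was not tested. The log2 change against chow was 0.72 ± 0.10 in AIM-KO (adjusted p = 1e-04) and 0.63 ± 0.10 in WT livers (adjusted p = 0.0011) at 12 weeks. It was 0.73 ± 0.10 in AIM-KO (adjusted p = 0.00023) and 0.60 ± 0.10 in WT livers (adjusted p = 0.00066) at 20 weeks. These are 1.65-fold in AIM-KO and 1.55-fold in WT livers at 12 weeks, and 1.66-fold in AIM-KO and 1.51-fold in WT livers at 20 weeks. The 20 week changes passed the threshold with the term for high Xist too, at 0.90 ± 0.18 in AIM-KO (adjusted p = 0.0206) and 0.65 ± 0.11 in WT livers (adjusted p = 0.000555).

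Elovl2, the elongase of the steps toward docosahexaenoic acid, was higher on HFD in both genotypes. Its intensity on chow was 4678, 3625.3 and 2870.1 in AIM-KO livers and 3583.4, 3193.6 and 3448.7 in WT livers. At 12 weeks it was 5237.4, 5004.7 and 5222.3 in AIM-KO and 5821, 5799.7 and 6275.8 in WT livers. At 20 weeks it was 6062.1, 6342.8 and 5832.8 in AIM-KO and 5590.2, 5596.1 and 4379.6 in WT livers. No HFD array of a genotype was as low as its chow arrays, and the AIM-KO chow arrays were spread widely. The log2 change was 0.50 ± 0.13 in AIM-KO (adjusted p = 0.014) and 0.81 ± 0.13 in WT livers (adjusted p = 0.0013) at 12 weeks. It was 0.73 ± 0.13 in AIM-KO (adjusted p = 0.0022) and 0.60 ± 0.13 in WT livers (adjusted p = 0.0051) at 20 weeks. The AIM-KO call at 12 weeks was lost without replicate 3 of AIM-KO on chow, the lowest array (0.32, adjusted p = 0.0788), and without replicate 1 of AIM-KO at 12 weeks (0.49, adjusted p = 0.0505). The AIM-KO call at 20 weeks was lost with the term for high Xist (0.56 ± 0.24, adjusted p = 0.29).

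**Figure D2:**
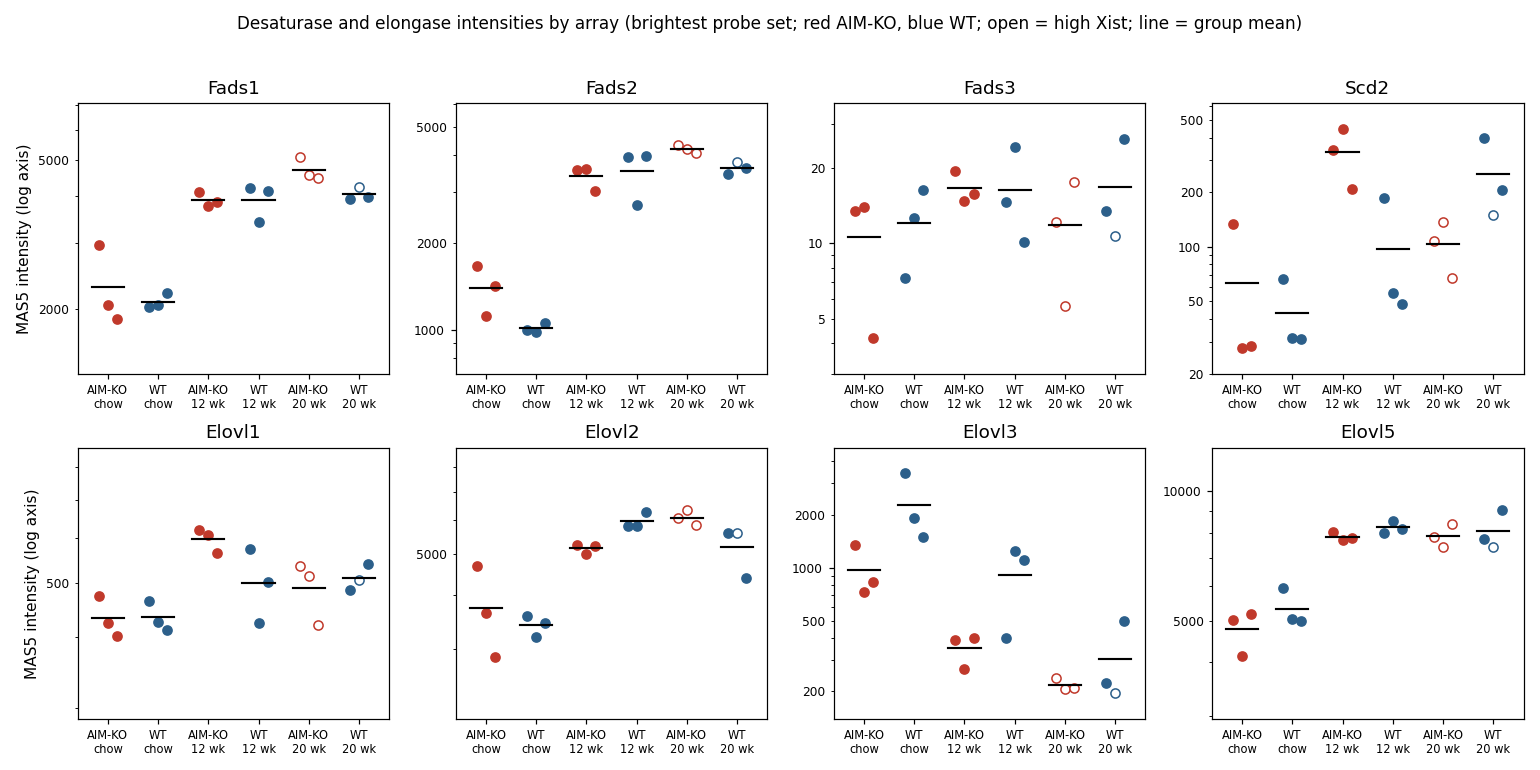
Deposited intensity of each gene's brightest probe set on every array (log axis, a scale of its own in each panel), AIM-KO in red and WT in blue on chow and at 12 and 20 weeks of high-fat diet; open circles are the 4 arrays with high Xist and lines are group means. The HFD arrays of Fads1, Fads2, Elovl2 and Elovl5 lie above the chow arrays of their genotype, those of Elovl3 lie below, and the groups of Fads3 overlap except AIM-KO at 12 weeks and on chow.

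Elovl1, the elongase of saturated and monounsaturated very long chains for sphingolipids, passed the test in 1 comparison. At 12 weeks its intensity was 619.2, 607.1 and 564 in AIM-KO livers, against 473.6, 424.9 and 401.4 in AIM-KO livers on chow. The arrays did not overlap, and the log2 change was 0.46 ± 0.12 (1.38-fold, adjusted p = 0.011). In WT livers it was 572.6, 424.2 and 500.6 at 12 weeks and 463.9, 426 and 411.5 on chow, a change of 0.19 ± 0.12 (adjusted p = 0.41). At 20 weeks the change was 0.17 ± 0.12 in AIM-KO (adjusted p = 0.47) and 0.23 ± 0.12 in WT livers (adjusted p = 0.22). Its other probe sets did not move alike: the second brightest gave 0.51 ± 0.12 in AIM-KO livers at 12 weeks (adjusted p = 0.0068), while 1425676_a_at gave 0.09 ± 0.14 (adjusted p = 0.733).

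Scd2, a stearoyl-CoA desaturase best known from brain and skin, was called in AIM-KO livers at 12 weeks and in WT livers at 20 weeks. Its intensity on chow was 133.8, 27.8 and 28.3 in AIM-KO livers and 66.3, 31.4 and 31.2 in WT livers. At 12 weeks it was 341.1, 445 and 208.4 in AIM-KO and 186.9, 55.8 and 48.4 in WT livers. At 20 weeks it was 107.3, 136.9 and 67.6 in AIM-KO and 397.4, 150.6 and 206.3 in WT livers. The AIM-KO arrays were highest at 12 weeks. The WT mean was highest at 20 weeks, where the array at 150.6 lay below the 186.9 of WT at 12 weeks. At 12 and at 20 weeks the genotypes did not overlap. Scd2 rose in AIM-KO livers at 12 weeks by 2.64 ± 0.55 (6.24-fold, adjusted p = 0.0024) and in WT livers at 20 weeks by 2.43 ± 0.55 (5.37-fold, adjusted p = 0.0058). Its change was 0.93 ± 0.55 in WT livers at 12 weeks (adjusted p = 0.38) and 1.01 ± 0.55 in AIM-KO livers at 20 weeks (adjusted p = 0.32). Replicate 1 of AIM-KO on chow stood above the rest of its group, and without it the AIM-KO change at 12 weeks was 3.35 (adjusted p = 0.000254). With the mean of the probe sets the changes were 1.29 in AIM-KO livers at 12 weeks (adjusted p = 0.00645) and 1.38 in WT livers at 20 weeks (adjusted p = 0.00514). With the term for high Xist the AIM-KO change at 20 weeks was 1.92 ± 0.98 (adjusted p = 0.388). Without the 4 arrays of high Xist the WT change at 20 weeks was 2.73 ± 0.63 (adjusted p = 0.00802). A second probe set gave 1.85 ± 0.41 in AIM-KO livers at 12 weeks and 1.64 ± 0.41 in WT livers at 20 weeks (adjusted p = 0.00406 and 0.0111). The third, 1415824_at, lay between 1 and 13.7 on all arrays and gave -0.62 ± 0.50 and 0.07 ± 0.50 (adjusted p = 0.46 and 0.95).

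Markers of recruited macrophages moved with Scd2, and those of resident macrophages and of some other cell types did so in part. The list names 10 genes, of which 8 were tested, and their summed intensity on chow was 253.3 to 336.2 in AIM-KO and 276.8 to 350.1 in WT livers. At 12 weeks the sum was 991.2 to 1477 in AIM-KO and 414.9 to 1027.7 in WT livers, and at 20 weeks 349 to 490.7 in AIM-KO and 801.1 to 1413.6 in WT livers. The array with the highest Scd2 of WT at 12 weeks, replicate 1, also had the highest sum of that group. At 12 weeks 6 of the 8 markers were higher than on chow in AIM-KO and 3 in WT livers, and at 20 weeks 1 was higher in AIM-KO and 6 in WT livers (0 in AIM-KO and 5 in WT livers with the term for high Xist). Mmp12, a macrophage elastase, changed by 4.69 ± 0.43 in AIM-KO (adjusted p = 1.5e-06) and 2.81 ± 0.43 in WT livers (adjusted p = 0.00068) at 12 weeks. No marker was listed at 0, but Trem2 lay between 1.2 and 22.1 and Itgam between 2.5 and 19.9 on all arrays. The genes whose log2 values followed Scd2 most closely over the 18 arrays were Ckb, Wipf1 and Il10rb, with Pearson r of 0.95, 0.93 and 0.93, as a description over arrays of the same 6 groups. The sum of 9 tested Kupffer cell and macrophage markers was 4481.7 to 5694.5 in AIM-KO and 3008.7 to 4555.3 in WT livers at 12 weeks. At 20 weeks that sum was 3094.5 to 4347.5 in AIM-KO and 4311.3 to 5395.2 in WT livers. The stellate cell sums overlapped at 12 weeks, at 3470.6 to 4165.4 in AIM-KO and 3353.7 to 4611.6 in WT livers. At 20 weeks they did not, at 3075.8 to 3853.1 in AIM-KO and 4627.7 to 6072.4 in WT livers. Sums of endothelium markers also overlapped at 12 weeks. They stood apart at 20 weeks, at 1221.2 to 1340.2 in AIM-KO and 1431.3 to 1738.6 in WT livers. Adipocyte sums, of 2 tested genes, stood apart at 12 weeks (632.9 to 786 in AIM-KO, 375.1 to 467.4 in WT livers) and overlapped at 20 weeks. Bright markers weigh most in such sums. The part of macrophages or other cell types in the Scd2 values was not tested.

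**Figure D3:**
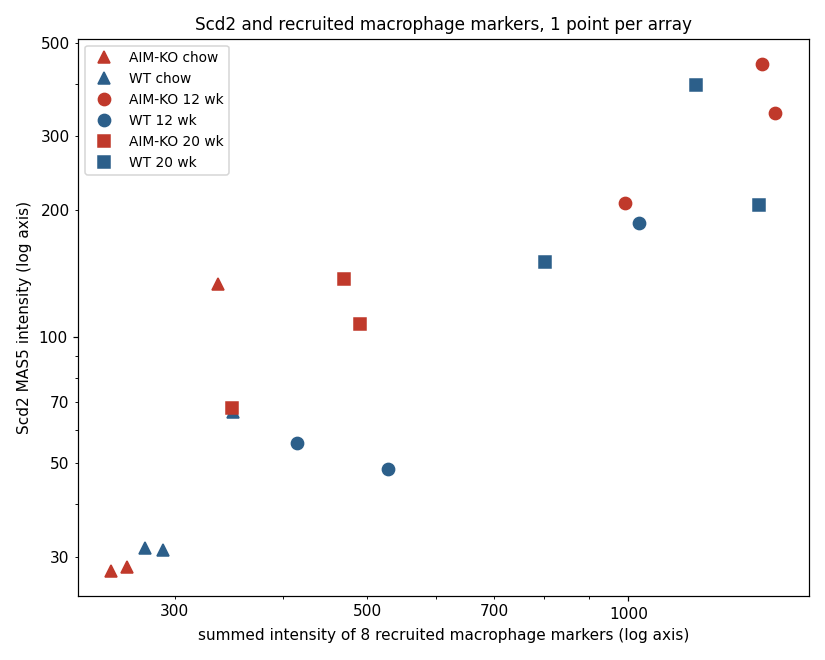
Scd2 intensity against the summed intensity of the 8 tested recruited macrophage markers (both log axes), 1 point for each of the 18 arrays, AIM-KO in red and WT in blue, with triangles for chow, circles for 12 weeks and squares for 20 weeks. The AIM-KO arrays at 12 weeks, the WT arrays at 20 weeks and replicate 1 of WT at 12 weeks lie at the upper right.

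Elovl3, an elongase of saturated and monounsaturated very long chains that in mice is higher in male than in female liver, was lower on HFD. Its intensity on chow was 1342.8, 725.1 and 834.5 in AIM-KO livers and 3418.1, 1904.1 and 1501.3 in WT livers. At 12 weeks it was 387.8, 268.9 and 399.5 in AIM-KO and 398.5, 1243 and 1105.7 in WT livers. After 20 weeks it was 239.1, 205.4 and 207.8 in AIM-KO and 222.4, 195.2 and 497.5 in WT livers. Every HFD array was below every chow array of its genotype. The log2 change was -1.42 ± 0.39 in AIM-KO (0.37-fold, adjusted p = 0.016) and -1.38 ± 0.39 in WT livers (0.38-fold, adjusted p = 0.048) at 12 weeks. It was -2.09 ± 0.39 in AIM-KO (0.24-fold, adjusted p = 0.0029) and -2.92 ± 0.39 in WT livers (0.13-fold, adjusted p = 7.2e-05) at 20 weeks. Without the 4 arrays of high Xist the WT change at 20 weeks was -2.67 ± 0.45 (adjusted p = 0.00115). With the term for high Xist the AIM-KO change at 20 weeks was -1.33 ± 0.69 (adjusted p = 0.403). The WT call at 12 weeks was past the threshold in 12 of 30 alternatives, among them 7 of the 18 fits that left out 1 array. The change was -0.87 (adjusted p = 0.257) without replicate 1 of WT at 12 weeks and -1.04 (adjusted p = 0.167) without replicate 1 of WT on chow. The AIM-KO call at 12 weeks was lost without replicate 1 of AIM-KO on chow (-1.16, adjusted p = 0.0766) or replicate 2 at 12 weeks (-1.24, adjusted p = 0.081).

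Other genes with a sex bias in mouse liver moved beside Elovl3. Of 7 tested genes that are higher in males, 5 were lower in AIM-KO and 3 in WT livers at 12 weeks than on chow, and all 7 were lower in both genotypes at 20 weeks. Their median log2 change was -2.69 in AIM-KO and -1.34 in WT livers at 12 weeks, and -4.55 in AIM-KO and -3.91 in WT livers at 20 weeks. Of 9 tested genes that are higher in females, 4 were higher in AIM-KO and 2 in WT livers at 12 weeks, and 6 in AIM-KO and 4 in WT livers at 20 weeks. High Xist moves with the 20 week values. With its term 3 of the 7 male-biased genes were lower in AIM-KO and 7 in WT livers. Their medians were then -2.23 in AIM-KO and -2.53 in WT livers. Of the 9 female-biased genes 4 were higher in each genotype with the term. The median log2 change of the female-biased genes at 20 weeks was 4.16 in AIM-KO and 1.18 in WT livers. With the term it was 0.67 in AIM-KO and 0.11 in WT livers. The bile acid and steroid hydroxylase Cyp7b1 changed by -2.69 ± 0.25 in AIM-KO (adjusted p = 1.9e-06) and -1.26 ± 0.25 in WT livers (adjusted p = 0.0057) at 12 weeks, where no array had high Xist. The female-biased cytochrome Cyp2b9 changed by 5.94 ± 0.70 in AIM-KO (adjusted p = 1.6e-05) and 3.15 ± 0.70 in WT livers (adjusted p = 0.012) at 12 weeks. Among WT livers at 12 weeks, replicate 1 was the lowest for Elovl3 and also for Slco1a1, an organic anion transporter, at 61.5, against 1663.3 and 1322.8 on the other arrays. The genes most like Elovl3 over the 18 arrays were Slco1a1, Sdr9c7 and Hsd3b5, with Pearson r of 0.91, 0.91 and 0.89.

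**Figure D4:**
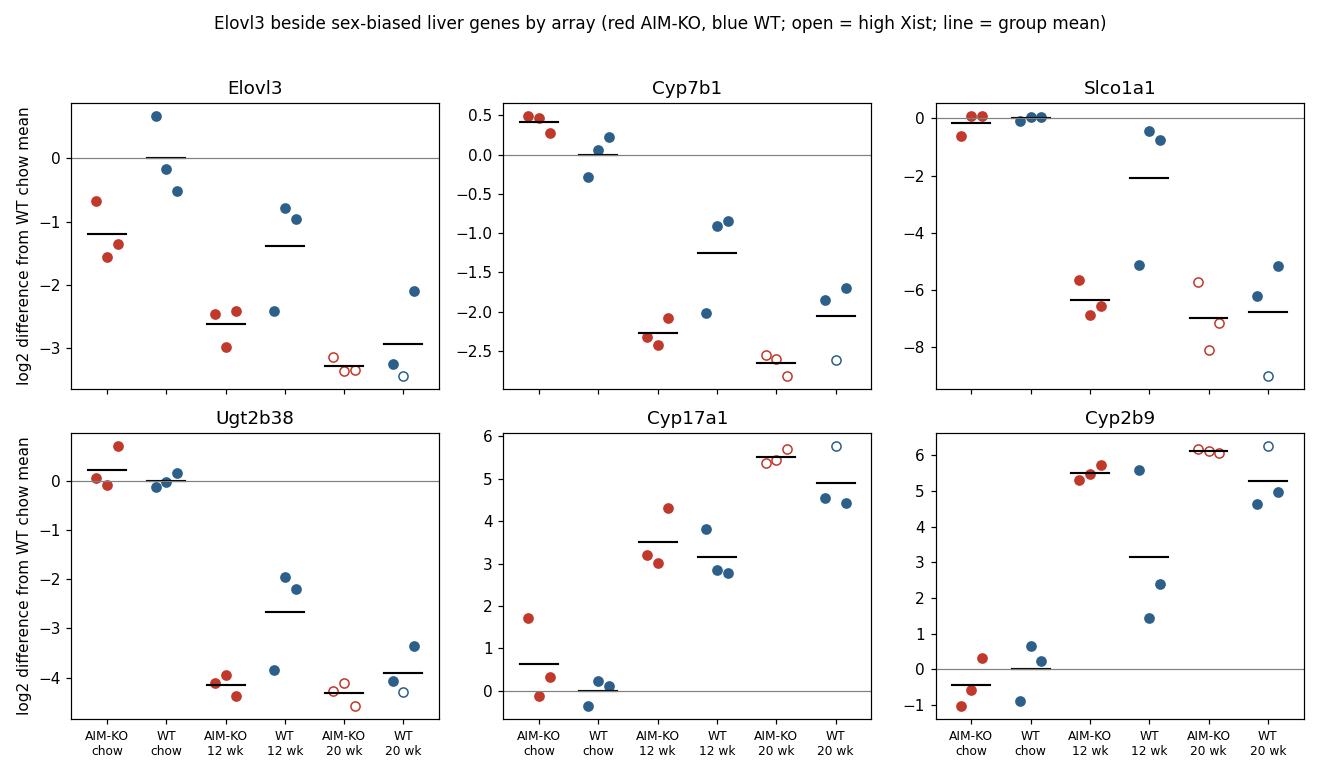
Log2 difference of each array from the WT chow mean for Elovl3, the male-biased genes Cyp7b1, Slco1a1 and Ugt2b38 and the female-biased genes Cyp17a1 and Cyp2b9, AIM-KO in red and WT in blue, open circles for arrays with high Xist and lines for group means. Replicate 1 of WT at 12 weeks, the first point of its group, lies near the AIM-KO arrays of 12 weeks for Elovl3, Slco1a1, Ugt2b38 and Cyp2b9, and on chow Elovl3 alone of the panels has the AIM-KO arrays apart from and below the WT arrays.

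Fads3 was near the dim end of the arrays. Its intensity ranged from 4.2 to 26.1 over the 18 arrays, whose 40th percentiles were 9.5 to 14.2, and 14 arrays lay above that percentile. Its 4 changes against chow were between 0.13 and 0.62, each ± 0.42, with adjusted p between 0.36 and 0.91. The upper ends of their 95% intervals were 1.01 to 1.49.

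No member passed the test between the genotypes by limma. Unadjusted p was under 0.05 for 2 of the 8 genes on chow, 3 at 12 weeks and 1 at 20 weeks, where this held for 7.24% of all genes on chow, 8.36% after 12 and 13.4% after 20 weeks of HFD. The calls covered 0.0272% of all genes on chow, 0.0749% after 12 and 0.157% after 20 weeks. Elovl3 was lower in AIM-KO than in WT livers on chow, by a log2 difference of -1.19 ± 0.39 with no overlap of the arrays but an adjusted p of 0.48. Arrays without overlap between genotypes were found for 11.5% of all genes on chow, 16% at 12 weeks and 15.8% at 20 weeks. At 12 weeks the Elovl3 difference was -1.23 ± 0.39 (adjusted p = 0.31) and at 20 weeks -0.36 ± 0.39 (adjusted p = 0.75), where the term for high Xist turned its direction (0.15 ± 0.54, adjusted p = 0.999). That of Fads3 also turned, at 0.02 ± 0.59 with the term and -0.42 ± 0.42 without it, and so did that of Elovl5, at 0.08 ± 0.14 with it and -0.03 ± 0.10 without it. Averaged over the diets, the Elovl3 difference was -0.93 ± 0.23 (adjusted p = 0.36). That comparison was added after these values were seen, and in it limma called 0.0272% of all genes. Without replicate 1 of WT at 12 weeks, Elovl3 passed the threshold at 12 weeks (-1.75, adjusted p = 0.028) and in the average (-1.10, adjusted p = 0.0445). Fads2 differed by 0.45 ± 0.14 on chow (adjusted p = 0.45), with all AIM-KO arrays above the WT arrays. For Elovl5 the 95% interval of the difference was -0.38 to 0.05 on chow, -0.29 to 0.14 at 12 weeks and -0.24 to 0.19 at 20 weeks.

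Scd2 had the largest log2 difference between genotypes of the 8 genes at 12 weeks and at 20 weeks. It was higher in AIM-KO than in WT livers at 12 weeks by 1.94 ± 0.55 (3.83-fold, adjusted p = 0.23) and lower at 20 weeks by a log2 difference of -1.19 ± 0.55 (0.44-fold, adjusted p = 0.35). Without replicate 1 of WT at 12 weeks, which had the highest value of its group, the 12 week difference was 2.53 ± 0.54 (adjusted p = 0.0389). The genotype difference at 20 weeks minus that at 12 weeks was -3.12 ± 0.78 (adjusted p = 0.051). That comparison was chosen after the Scd2 values were seen, and it called 1.42% of all genes. With a pseudocount of 13.2 it was -2.91 (adjusted p = 0.0383), and with the second probe set -2.11 ± 0.58 (adjusted p = 0.0799). All 3 AIM-KO arrays at 20 weeks had high Xist, and with a term for it the genotype difference of Scd2 at 20 weeks was -0.58 ± 0.77 (adjusted p = 0.999).

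The effect of the diet was not shown to differ between the genotypes for any member. The difference of the 12 week effect, AIM-KO minus WT, had an unadjusted p under 0.05 for 2 genes, Fads2 (-0.49 ± 0.20, adjusted p = 0.45) and Scd2 (1.71 ± 0.78, adjusted p = 0.51). That level held for 9.43% of all genes, and limma called 0.00681%. After 20 weeks it held for 0 members and for 10.2% of all genes, and limma called 0%. The 20 week difference of Fads3 turned with the term for high Xist, at 0.23 ± 0.72 with it and -0.22 ± 0.59 without it, and that of Scd2 was -0.81 ± 0.94 with it and -1.42 ± 0.78 without it. For Fads1 the 95% interval of the difference was -0.49 to 0.28 at 12 weeks and -0.28 to 0.50 at 20 weeks, and for Elovl5 it was -0.21 to 0.40 and -0.17 to 0.44.

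Between 12 and 20 weeks of HFD no member passed the test. In AIM-KO livers 3 of the 8 genes had an unadjusted p under 0.05, as had 16.5% of all genes, and limma called 3.42%. In WT livers 2 of the 8 had one, as had 8.1% of all genes, and limma called 0.0204%. Scd2 at 20 against 12 weeks differed by -1.63 ± 0.55 in AIM-KO (adjusted p = 0.12) and by 1.49 ± 0.55 in WT livers (adjusted p = 0.46). Elovl3 differed by -0.67 ± 0.39 in AIM-KO (adjusted p = 0.43) and by -1.54 ± 0.39 in WT livers (adjusted p = 0.22), and the WT difference was -2.06 (adjusted p = 0.0153) without replicate 1 of WT at 12 weeks. All 3 AIM-KO arrays at 20 weeks had high Xist, and with its term limma called 5 genes in AIM-KO livers, against 503 without it. In AIM-KO livers Scd2 then differed by -0.72 ± 0.98 (adjusted p = 0.913), while Elovl3 turned to 0.09 ± 0.69 (adjusted p = 0.982) and Fads3 to 0.18 ± 0.75 (adjusted p = 0.972). The WT value of Elovl5 turned too, at 0.02 ± 0.11 with the term and -0.03 ± 0.10 without it. Fads2 differed by 0.31 ± 0.14 in AIM-KO (adjusted p = 0.27) and by 0.05 ± 0.14 in WT livers (adjusted p = 0.96).

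Probe sets of one gene mostly moved together where the gene was bright. Elovl5's other probe set gave changes of 0.86 to 0.92, all past the threshold. The dimmer probe set of Fads1, 1440444_at, gave 0.07 ± 0.27 in AIM-KO and 0.37 ± 0.27 in WT livers at 12 weeks (adjusted p = 0.91 and 0.518), and 1.12 ± 0.27 in AIM-KO and 0.94 ± 0.27 in WT livers at 20 weeks (adjusted p = 0.0177 and 0.0266). Its range was 60.4 to 235.1, so the 12 week rise of Fads1 was seen with 1 of its 2 probe sets. Elovl2 and Elovl3 had 1 probe set each.

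**Figure D5:**
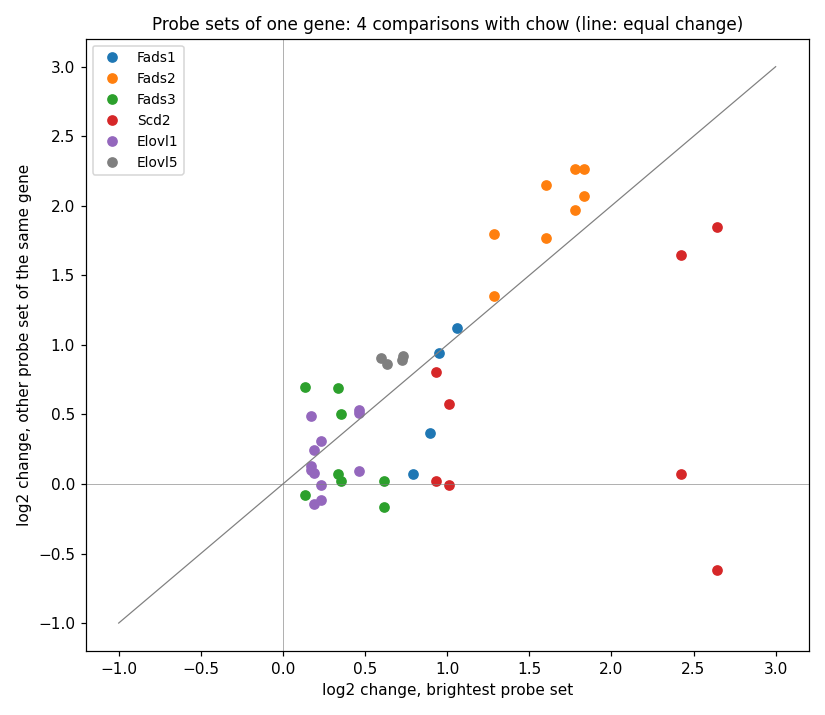
Log2 change against chow of each gene's other probe sets (vertical axis) against that of its brightest probe set (horizontal axis), for the 4 comparisons of HFD with chow; the line marks equal change. Fads2 and Elovl5 lie on or above the line, both probe sets of Fads1 differ at 12 weeks, and the dimmest probe set of Scd2 stays near or below 0.

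The genes differed in how closely their replicates agreed. The SD within groups on the log2 scale was 0.12 for Elovl5, 0.14 for Elovl1, 0.17 for Fads1, 0.17 for Elovl2 and 0.19 for Fads2, against a median of 0.28 over all genes. It was 0.53 for Fads3, 0.58 for Elovl3 and 0.81 for Scd2. The range of the 6 group means was 3.28 for Elovl3, 2.87 for Scd2 and 2.05 for Fads2, against a median of 0.59 over all genes.

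The 6 genes for the other steps of each elongation cycle, which are reductases and dehydratases, had 0 calls by limma in both genotypes at 12 weeks (1 gene in AIM-KO and 2 in WT livers at an unadjusted p under 0.05). At 20 weeks 1 was higher in AIM-KO livers, Hacd1 (0.35 ± 0.10, adjusted p = 0.048), and 3 in WT livers. Those were Hsd17b12, the ketoacyl-CoA reductase (0.43 ± 0.14, adjusted p = 0.047), and the dehydratases Hacd3 (0.32 ± 0.10, adjusted p = 0.038) and Hacd4 (0.82 ± 0.27, adjusted p = 0.049). When the Xist term was added, 0 were called in AIM-KO livers by limma (0 at an unadjusted p under 0.05) and 1, Hsd17b12, in WT livers. Of 5 genes for cytochrome b5 and its reductases, which pass electrons to the desaturases, Cyb5r3 was higher in AIM-KO livers at 12 weeks (0.42 ± 0.10, adjusted p = 0.0086). Cyb5a read 7040.4 to 9149.1 over the 18 arrays, in the bright range of Alb, and its value of -0.28 in that comparison stands beside -0.40 for Alb, so no direction is drawn from it. Cyb5r4 was higher in WT livers at 20 weeks (0.49 ± 0.11, adjusted p = 0.0061).

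Among 7 tested relatives of the 8 genes, Scd1, the main liver stearoyl-CoA desaturase, read 7133.9 to 11362.8 over the 18 arrays. This is near the array maxima, so no direction is drawn from its values of -0.38 in AIM-KO and -0.12 in WT livers at 12 weeks. Elovl6, which lengthens palmitate, read 1431.4, 1415.6 and 1670.7 in AIM-KO and 2050.9, 789.5 and 2200.8 in WT livers at 12 weeks, with changes of 1.03 (adjusted p = 0.077) and 1.12 (adjusted p = 0.11). Elovl7, an elongase of very long chains, changed by 1.85 ± 0.38 in AIM-KO livers at 12 weeks (adjusted p = 0.0024) and 1.90 ± 0.38 in WT livers at 20 weeks (adjusted p = 0.0025). These are the comparisons in which Scd2 was called, and a link between them was not tested. Of the 7 relatives 1 was higher in AIM-KO and 2 in WT livers at 20 weeks. With the term for high Xist 0 were higher in AIM-KO and 2 in WT livers.

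Known regulators of desaturase and elongase genes went both ways. Of 18 tested, 2 were higher and 4 lower in AIM-KO and 1 higher and 2 lower in WT livers at 12 weeks, and 2 were higher and 0 lower in AIM-KO and 1 higher and 3 lower in WT livers at 20 weeks. Pparg, a nuclear receptor of fat storage, was higher in all 4 comparisons, by 1.36 ± 0.25 in AIM-KO (adjusted p = 0.001) and 1.24 ± 0.25 in WT livers (adjusted p = 0.0065) at 12 weeks. Srebf1, which encodes a main activator of Fads1, Fads2 and Elovl5, read 1274.6, 1386.1 and 1298.5 in AIM-KO livers at 12 weeks, against 2885.8, 3414 and 1240.4 on chow, a change of -0.80 ± 0.24 (adjusted p = 0.028). In AIM-KO livers at 20 weeks Srebf1 was not called. In WT livers the Srebf1 change was -0.08 at 12 weeks, with an adjusted p of 0.91, and 0.20 at 20 weeks, with one of 0.67. Insig2, which holds the SREBP complex in the endoplasmic reticulum, was higher in AIM-KO livers by 1.67 ± 0.25 (adjusted p = 0.00017) after 12 weeks and by 1.02 ± 0.25 (adjusted p = 0.018) after 20 (0.78 ± 0.46 after 20 weeks with the term for high Xist, adjusted p = 0.463). Mlxipl, the carbohydrate response factor ChREBP, was lower in WT livers, with log2 changes of -0.88 ± 0.17 (adjusted p = 0.0049) after 12 weeks and -1.08 ± 0.17 (adjusted p = 0.00038) after 20. Ppara, whose protein also acts on Fads2 and Elovl5, was not called in any of the 4. When the Xist term was added, 0 regulators were called at 20 weeks in AIM-KO livers by limma (3 at an unadjusted p under 0.05), and the WT counts stayed at 1 higher and 3 lower.

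Genes that handle the products of the pathway were called in part. Peroxisomes shorten the chain in the last step to docosahexaenoic acid, and of 13 tested peroxisomal genes 4 were higher in AIM-KO and 3 in WT livers at 12 weeks. At 20 weeks 4 were higher and 1 lower in AIM-KO livers (1 higher and 0 lower with the term for high Xist), and 2 were higher and 1 lower in WT livers. Abcd2, a peroxisomal importer of very long chain acyl-CoA, was higher in all 4 comparisons, by 1.57 ± 0.45 in AIM-KO (adjusted p = 0.021) and 1.90 ± 0.45 in WT livers (adjusted p = 0.017) at 12 weeks. It was also the gene whose values followed Fads1 most closely over the 18 arrays (Pearson r 0.95). Of 17 acyl-CoA synthetase, phospholipid acyltransferase and transport genes, 5 were higher in AIM-KO and 1 in WT livers at 12 weeks, and 2 in AIM-KO and 5 in WT livers at 20 weeks (0 in AIM-KO and 6 in WT livers with the term for high Xist). Mfsd2a, the transporter of lysophospholipids that carry docosahexaenoic acid, was higher in all 4, by 1.45 ± 0.37 in AIM-KO (adjusted p = 0.0093) and 2.41 ± 0.37 in WT livers (adjusted p = 0.00062) at 12 weeks.

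Of 14 genes that release and oxidise polyunsaturated fatty acids, 3 were higher in AIM-KO and 2 in WT livers at 12 weeks. After 20 weeks limma called 0 in AIM-KO livers (0 at an unadjusted p under 0.05). In WT livers 2 were then higher and 1 lower (2 higher and 2 lower with the term for high Xist). Pla2g4a, the phospholipase that frees arachidonic acid, changed by 0.80 ± 0.20 in AIM-KO (adjusted p = 0.0073) and 0.97 ± 0.20 in WT livers (adjusted p = 0.0059) at 12 weeks. Of 10 genes of ceramide and sphingolipid synthesis, which uses the chains made by Elovl1 and Elovl3, 2 were higher in AIM-KO and 1 in WT livers at 12 weeks. At 20 weeks 1 was higher in AIM-KO livers, and 5 were higher and 1 lower in WT livers. When the Xist term was added, limma called 0 in AIM-KO livers (0 at an unadjusted p under 0.05), and 2 higher and 1 lower in WT livers.

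The genes nearest to the other members in pattern over the 18 arrays were Ghitm, Bdh1 and Slc22a29 for Fads2 (Pearson r 0.96, 0.95 and 0.95) and Apoa4, Plin2 and Gal3st1 for Elovl5 (0.95, 0.95 and 0.95). They were Slc39a5 and Abhd2 after Abcd2 for Fads1 (0.94 and 0.94), Tmem143, Slc25a10 and Tpm1 for Elovl1 (0.94, 0.91 and 0.90), and Gm6958, 1810053B23Rik and Tspan31 for Elovl2 (0.92, 0.91 and 0.91). These are correlations over arrays that share the same groups and are given as a description.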

How the data were processed

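Per the submitters' processing notes, which give no version, the authors used MAS5. They deposited 1 linear intensity for every probe set. RNA (100 ng) was extracted with Trizol and labelled with biotin, per the labels' protocols. The 2% trimmed mean of every array was 100. The number of arrays limits the precision.

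Of 45101 probe sets, 34945 had 1 gene in the platform annotation, and 26674 of these exceeded the 40th percentile of an array on 3 arrays or more. Symbols were updated through gene IDs. The brightest probe set stood for its gene. Values were taken as log2(intensity + 3.3), which understates changes of dim genes. limma 3.58.1 in R 4.3.3 was fitted to 6 group means on all 18 arrays with an intensity trend. Its tests were 2-sided, with Benjamini-Hochberg adjustment over 14694 genes and a threshold of 0.05. All adjusted p-values are from limma. The procedure was tested on simulated data.

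Named are the 8 genes, up to 3 called genes with the largest change in a list and comparison (where none was called, that of smallest p), Cd5l, sex-linked genes, Scd1, Elovl6, and the 3 genes most correlated with each called member. Ppara and Itgam are named outside this rule, after their values were seen. Members and lists were chosen with earlier results of these data known. Alternatives were pseudocounts of 13.2 and 0.825, quantile normalization, other dim filters, averaging all probe sets per gene, other single probe sets, a fit without the trend, array weights, a replicate block, terms for Xist and the actin ratio, only the groups compared, and leaving out arrays; the Xist settings for the lists were added after seeing the data. Promoters are from RefSeq GRCm38.p6, matched by gene.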

Additional observations from a re-analysis of the deposited data

Results flagged for a closer look

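Scd2 differed between genotypes in opposite directions at 20 and 12 weeks of HFD, and the arrays of the genotypes did not overlap at either time. AIM-KO minus WT was -1.19 at 20 weeks and 1.94 at 12 weeks. The change at 20 against 12 weeks was -1.63 in AIM-KO and 1.49 in WT livers, where the WT arrays of the 2 times overlapped. The difference of these effects was -3.12 ± 0.78 on the log2 scale (limma, adjusted p = 0.051), which missed the threshold. With the term for high Xist, which all 3 AIM-KO arrays at 20 weeks had, it was -2.51 ± 0.94 (adjusted p = 0.478). Over 29 alternatives its adjusted p was 0.00767 to 0.478, and 9 of them passed the threshold. Leaving out each array in turn gave -3.72 to -2.74.

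Elovl2 also went opposite ways, with no overlap between genotypes at either time (no overlap in 16% of all genes at 12 weeks and 15.8% at 20 weeks). AIM-KO minus WT was 0.24 at 20 weeks and -0.21 at 12 weeks, and the change at 20 against 12 weeks was 0.24 in AIM-KO and -0.21 in WT livers. The difference of these effects was 0.45 ± 0.19 (limma, adjusted p = 0.29). The comparison was added after the Scd2 values were seen. Leaving out each array in turn gave 0.33 to 0.51 for Elovl2. With the term for high Xist the AIM-KO change of Elovl2 at 20 against 12 weeks was 0.06. Its genotype difference at 20 weeks was then 0.12. Scd2 and Elovl2 were flagged by opposite directions on every array, and the share of all genes meeting that rule was not computed.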

How the results depend on the processing

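Of 3290 values of single members under an alternative, 3234 kept their side of the threshold. Of these 3104 kept their direction, and 130 changed sign with no call under either setting. Another 34 lost the call and 21 gained one with the same sign, and 1 reversed. The reversed one was Scd2 in AIM-KO livers at 12 weeks with probe set 1415824_at, at -0.62 (limma, adjusted p = 0.46); the cause was not tested. At 20 weeks of HFD against chow in AIM-KO livers 2 members were called with the term for high Xist, against 5 without it, and at 12 weeks in WT livers 3 were called with the mean of probe sets, against 5. At 20 against 12 weeks in AIM-KO livers 1 was called with array weights, 1 with the replicate block and 5 with only the groups compared, against 0. In the genotype effect at 20 minus 12 weeks 1 was called with a pseudocount of 13.2, the stricter dim filter, array weights or the replicate block, against 0. The causes were not tested.

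Leaving out each array in turn gave 6 to 7 members called in AIM-KO and 4 to 5 in WT livers at 12 weeks against chow, and 5 in AIM-KO and 6 in WT livers at 20 weeks in every case. Between genotypes it gave 0 on chow, 0 to 2 at 12 weeks, 0 at 20 weeks and 0 to 1 in the average over diets. At 20 against 12 weeks it gave 0 in AIM-KO and 0 to 1 in WT livers, in the difference of the diet effects 0 at both times, and in the genotype effect at 20 minus 12 weeks 0 to 1. The calls gained between genotypes at 12 weeks, in the average and at 20 against 12 weeks in WT livers came without replicate 1 of WT at 12 weeks.

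Samples with the same replicate number in different groups correlated at -0.088 to 0.229 (median 0.038) in their deviations, and samples of different number at -0.192 to 0.124 (median -0.017). At 20 weeks the AIM-KO and WT pairs of a number correlated at 0.078, 0.101 and 0.229. Not every pair was above 0.1, so the numbers were not taken to pair the samples. With the replicate block the members called against chow were 7 in AIM-KO and 4 in WT livers at 12 weeks, and 5 in AIM-KO and 6 in WT livers at 20 weeks. Scd2 was then called at 20 against 12 weeks in AIM-KO livers (-1.63, adjusted p = 0.0202) and in the genotype effect at 20 minus 12 weeks (-3.12, adjusted p = 0.00767), while Elovl3 in WT livers at 12 weeks was not (-1.38, adjusted p = 0.0531). The block changed no other call of a member.

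Counts over all genes moved more. Against chow they were 1696 to 4229 in AIM-KO (2645 as reported) and 334 to 1314 in WT livers (753) at 12 weeks, and 195 to 1986 in AIM-KO (1007) and 1369 to 3020 in WT livers (2123) at 20 weeks. Between genotypes they were 3 to 9 on chow (4), 3 to 100 at 12 weeks (11), 2 to 946 at 20 weeks (23, the highest without replicate 2 of WT) and 3 to 55 in the average (4). At 20 against 12 weeks they were 5 to 1655 in AIM-KO (503) and 1 to 33 in WT livers (3). In the difference of diet effects they were 0 to 23 at 12 weeks (1) and 0 to 332 at 20 weeks (0), and in the genotype effect at 20 minus 12 weeks 15 to 801 (208). Signal near background limits Fads3 and the dim probe set of Scd2, and 3 arrays a group limit all values. At 20 weeks Xist and genotype are largely tied.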
